A study of Mus musculus with 10 samples.

Results

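Of the 32135 introns counted from spliced reads in mouse cerebral cortex, 2912 carried the verdict of a cryptic 5′ splice site in the deposited intron table, and these introns are described here. The verdict means that the 3′ end of the intron matched the annotation that the authors used and the 5′ end did not. The 2912 introns lay in 2345 clusters, which are groups of introns that share a splice site, and in 1895 genes. An intron is measured by its share, the percent of the reads of its cluster that it holds in a library. USP7 is a deubiquitinase, an enzyme that takes ubiquitin off other proteins. Usp7 cKO (conditional knockout) mice carried floxed Usp7 (Usp7 fl/fl) and NEX-cre, a Cre driver restricted to forebrain glutamatergic cells, and Usp7 WT mice were the control group. All animals of both groups were Trp53+/- and 18 days old, and each group had 5 animals, 2 labelled male and 3 female, taken as pairs matched by litter and sex that the labels do not name. The question of the comparison is whether splicing from such sites differed between the genotypes.

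A 5′ splice site is the exon-intron border at which splicing starts. The U1 snRNP finds it by base pairing with the last bases of the exon and the first bases of the intron, and U6 snRNA takes its place before the first cut. A cryptic site is a sequence that resembles a 5′ splice site and is used instead of, or beside, the annotated one. Use of a site inside the annotated exon removes bases from that exon, and use of a site a short way downstream adds intron bases to it. For a site far from the annotated one, the intron alone does not show which exon it follows. A change that shifts the reading frame often brings an early stop codon, and nonsense-mediated decay degrades many such transcripts, so that low levels of such introns in RNA can understate how often the site is cut.

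Intron reads summed to between 3388310 and 4367711 per library, and 93.2 to 97.0% of the 2912 introns had a read in each library. Where an intron had 0 reads, up to 3 reads remain possible, which is 6.87e-05 to 8.85e-05% of the intron reads of a library, counting error alone. The level of Usp7 itself, in TPM (abundance scaled by transcript length and depth), was 53.9 ± 5.32 in the controls (SD, n = 5) and 36.9 ± 3.96 after deletion, a log2 change of -0.54 (SE 0.08, limma adjusted p = 0.00131) with no overlap of the groups. The tissue also holds cells in which NEX-cre is not active. In 2 libraries the sex-linked transcripts went against the labelled sex. Usp7 WT replicate 2, labelled female, had 0.0478 TPM of Xist and 22.8 TPM of Ddx3y, and Usp7 cKO replicate 1, labelled male, had 116 TPM of Xist and 0.0523 TPM of Ddx3y. Results that change without these libraries are named below. By the labels, 1 library was made per animal.

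The verdict was first checked against the GENCODE M21 annotation of GRCm38. Of the 2912 introns, 2910 had their 3′ site in M21. The 5′ site was absent from M21 for 2228 introns (76.5%) and present for 684 (23.5%), and 638 introns (21.9%) were there as whole introns. For the introns that the table calls annotated, 22154 of 22163 were whole introns of M21. The 684 sites are cryptic only with respect to the annotation behind the table. They are kept as members and given apart from the rest below. By position, 1381 of the sites lay in introns, 345 inside a coding exon, 236 inside a non-coding exon or UTR, 96 inside transcripts annotated as retained introns only, and 170 outside annotated transcripts of that strand.

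Relative to the annotated 5′ site most used with the same 3′ site, 1956 cryptic sites lay downstream and 861 upstream, and 95 had no annotated partner. Most were far from it. Of the 2157 sites that are absent from M21 and have a partner, 1292 (59.9%) were over 300 bases away and 1032 of these were downstream, while 436 (20.2%) lay within 50 bases and 210 (9.74%) within 12 bases. The near sites were not spread evenly. There were 33 at 4 bases upstream of the annotated site, 25 at 4 bases downstream, 20 at 6 bases upstream and 14 at 9 bases downstream, against 3 at 2 bases upstream and 0 at 7 bases downstream. Introns at 6 bases upstream had a median share of 9.44%, and those at 4 bases upstream and downstream 3.92% and 3.28%.

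**Figure D1:**
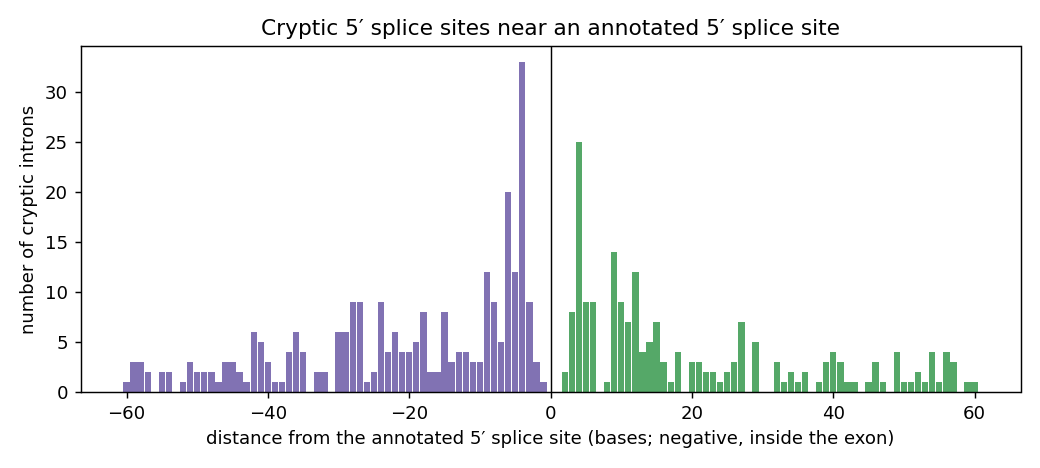
Number of cryptic introns (y axis) by distance in bases of the cryptic 5′ splice site from the annotated one (x axis, negative inside the exon), for sites absent from M21 within 60 bases. The bars at 4 bases upstream (33), 4 bases downstream (25) and 6 bases upstream (20) are the highest.

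The letters at these sites could be read where they lie in an exon of an annotated transcript, from the GENCODE M21 transcript sequences. The most frequent letters of 4436 annotated 5′ sites read in the same way, 3 exon and 6 intron bases with the first pair of the intron in capitals, were as follows.
annotated consensus: cagGTaagt

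The most read coding exon members at 4 and at 6 bases upstream, among those ranked, are printed here because these distances are the most common ones upstream. The ranking for printing did not cover every chromosome. Each run is 10 exon bases followed by the bases lost from the exon, and ends at the last base of the annotated exon. Capitals mark the first pair of bases of the cryptic intron.
Cbarp, chr10:80133005-80133018, minus strand: cccactctcgGCag
Adam11, chr11:102772099-102772112, plus strand: gaaggaaaagGCag
Dapk1, chr13:60602583-60602596, plus strand: gaggaactggGCag
A830010M20Rik, chr5:107497837-107497850, plus strand: gaaaattcaaGTag
Kmt2d, chr15:98856607-98856622, minus strand: ctgctcaaggGTgaag
Zer1, chr2:30107495-30107510, minus strand: ctaccaggagGTgacg
Pkp4, chr2:59305182-59305197, plus strand: ctccatgaaaGTgagg
Rasgrf1, chr9:89944864-89944879, plus strand: gaagacggagGTaact

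Coordinates are on GRCm38. In 3 of the 4 introns at 4 bases the cryptic intron starts with GC, and the annotated exon ends in ag. Over all members at that distance, 33 could be read, of which 21 start with GT and 12 with GC, while all 20 at 6 bases upstream start with GT. Each of the 6-base losses takes a multiple of 3 bases from the exon and each of the 4-base losses does not. Shares were 8.17% ± 1.39 (SD, n = 5) in Usp7 WT and 9.34% ± 1.53 in Usp7 cKO for Cbarp, which encodes a regulator of voltage-gated calcium channels. For Zer1, a substrate receptor of a cullin ubiquitin ligase, they were 30.6% ± 1.01 and 31.3% ± 4.29. For Kmt2d, a histone H3 lysine methyltransferase, they were 22.9% ± 5.28 and 32.7% ± 4.83, with an overlap of the groups and no call by either test (edgeR adjusted p = 1, DESeq2 adjusted p = 0.0571).

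Over all 661 readable sites absent from M21, 92.3% start with GT and 7.41% with GC, against 98.0% and 1.88% of 4586 readable annotated sites. Cryptic sites with GT matched the 9 consensus letters at 5.49 ± 1.01 positions (SD over 568 sites) and annotated ones at 6.13 ± 0.989 (SD over 4358 sites). The letters differed most inside the intron. A at intron position 4 was found in 43.0% of the cryptic and 63.2% of the annotated sites, G at position 5 in 61.4% and 74.8%, and G as the last exon base in 75.4% and 79.7%. Readable sites lie in exons of some transcript, so they are not a sample of the intronic ones. Members with at most 4 matching letters had a median share of 3.88% (79 introns), those with 5 a median of 5.49%, those with 6 a median of 4.71% and those with at least 7 a median of 6.14% (90 introns). The median did not rise steadily with the match. The median was 4.87% for 624 introns that start with GT and 3.88% for 49 that start with GC.

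Among sites upstream of the annotated one by at most 200 bases in a coding exon, 133 of 290 took a multiple of 3 bases from the exon, and 85 and 72 left a remainder of 1 and 2. The median share was 4.99% for the former and 4.67% for the others. More of the former were above a share of 20%, namely 21 of 133 (15.8%) against 15 of 157 (9.55%). The coding exon members shown next had the most reads among those ranked for printing, all a short way upstream of the annotated site.
Entpd4, chr14:69357116-69357149, plus strand: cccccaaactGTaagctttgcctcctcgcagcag
Tcaf1, chr6:42673353-42673388, minus strand: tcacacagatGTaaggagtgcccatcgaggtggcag
Huwe1, chrX:151923552-151923606, plus strand: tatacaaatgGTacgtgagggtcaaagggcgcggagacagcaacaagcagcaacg

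Entpd4 encodes a nucleotidase of the Golgi and lysosomes, and the printed member, a 24-base loss, held 23.5% ± 1.07 of the cluster in Usp7 WT and 29.5% ± 0.964 in Usp7 cKO. Per library, the share was 24.5, 23.5, 22.6, 24.5 and 22.3% in Usp7 WT and 28.4, 29.2, 28.9, 30.8 and 30.0% in Usp7 cKO. All Usp7 cKO libraries were above all Usp7 WT libraries, without a call (edgeR adjusted p = 1, DESeq2 adjusted p = 0.0535). A second copy of the gene on chromosome 14 has the same 34 bases and an intron in the same cluster with nearly the same counts (23.3 and 29.0%), so reads cannot be assigned to either copy with confidence. Both introns carry the 24-base loss, so the share of each is only a part of the share of the loss. The 26-base loss in Tcaf1, a regulator of TRPM8 channels, held 45.3% ± 4.42 and 54.0% ± 6.15. The 45-base loss in Huwe1, a ubiquitin ligase, held 44.4% ± 3.09 and 51.01% ± 3.47, with overlapping groups and no call in either (edgeR adjusted p = 1).

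Most members were minor products. The median share over all 2912 was 6.05% with a median of 10.1 reads per library. The share was under 5% for 1288 of them (44.2%) and over 50% for 131 (4.499%), of which 81 have an M21-annotated 5′ site. The 684 introns with an M21 site had a median share of 16.4%, and the medians of the other positions lay between 4.12 and 5.65%. Snhg14, the long host transcript of the Snord115 and Snord116 small nucleolar RNAs, held 53 members with shares from 0.613 to 65.4% and a median of 1.66%. Gm20878 held 21 and Snrpn 13. Gm20878 belongs to a repeated locus, so its reads may be split between copies.

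The member with most reads lay in Slc22a17, which encodes a lipocalin 2 receptor, with 1770 reads per library and a share of 53.8% ± 0.941 in Usp7 WT and 54.1% ± 1.14 in Usp7 cKO. The member in the gene for septin 5, a filament-forming GTPase of nerve terminals listed as 5-Sep in the table, had 1528 reads per library and shares of 69.5% ± 1.94 and 69.4% ± 2.03. It was followed by those in Psd (1288 reads), 6820431F20Rik (801.1 reads) and Rps24 (680.5 reads). The members in Slc22a17, septin 5, Psd and Rps24 are whole introns of M21, and that in 6820431F20Rik is not. Rps24, a protein of the small ribosomal subunit, had 36.9% ± 1.21 and 36.6% ± 0.385. In Slc22a17, septin 5 and Rps24 the groups overlapped and the test gave no call (edgeR adjusted p = 1 in each).

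Psd encodes an exchange factor of the ARF6 GTPase, and its member held 86.3, 89.0, 87.0, 86.9 and 86.4% in Usp7 WT and 80.6, 85.0, 83.4, 84.3 and 82.4% in Usp7 cKO. All Usp7 cKO libraries were lower, again without a call (edgeR adjusted p = 1, DESeq2 adjusted p = 0.702). The tested change is that of an intron against its whole cluster, so an intron that holds most of a cluster can move little on this scale. By the mean over all 10 libraries, the highest shares in clusters of at least 20 reads were those of Prune2 (98.3% ± 1.24 and 95.3% ± 4.33), Gm21811 (95.3% ± 1.71 and 93.6% ± 4.12), Kcnc2, a Kv3 potassium channel subunit (94.4% ± 3.57 and 94.0% ± 1.35), Itpr1, an inositol trisphosphate receptor (94.5% ± 2.11 and 93.1% ± 1.85), 6820431F20Rik (92.7% ± 1.16 and 93.2% ± 2.36) and Arhgef25 (94.3% ± 2.25 and 90.8% ± 2.82), each in Usp7 WT and then Usp7 cKO. Snap91, described below, was higher than these in most libraries and falls out by the mean through 1 library. None of those 6 was called by edgeR or DESeq2, and none had an unadjusted edgeR p under 0.05. The members in Prune2, Itpr1 and Arhgef25 are whole introns of M21, and those in Gm21811, Kcnc2 and 6820431F20Rik are not.

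Some members were present in some libraries and absent from others of the same genotype. A rule chosen after the values were seen, a share under 5% in at least 1 library and over 20% in all others with at least 20 cluster reads in every library, found 8 introns, of which 7 in 6 genes are described. In Dctn2, a dynactin subunit, the share was 0, 57.6, 87.9, 0 and 82.6% in Usp7 WT and 0, 0, 56.2, 54.96 and 53.1% in Usp7 cKO. In Cyth2, an exchange factor of ARF GTPases, it was 49.5, 95.6, 94.3, 47.9 and 95.5% in Usp7 WT and 0, 49.7, 95.5, 48.9 and 48.8% in Usp7 cKO. Both genes showed 3 levels, 2 of which occurred in both genotypes in each gene. In both genes the 2 levels above 0 parted mainly by the reads of the other introns of the cluster. The 5′ site of the Cyth2 member is in M21. Cyth2 had 22 cluster reads in the library at 0. In its other libraries the member had 205 to 281 reads. The cluster had 244 to 298 reads where the share was 94.3 to 95.6%, and 420 to 547 where it was 47.9 to 49.7%. In Dctn2 the member had 416 and 338 of 473 and 409 cluster reads at 87.9 and 82.6%. It had 326 to 471 of 580 to 818 at 53.1 to 57.6%.

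Rundc1 had a pair of members with the same 3′ site that replaced each other. The longer one, whose 5′ site is 6 bases downstream of the annotated one, held 75.9, 88.9, 83.3, 0 and 0% in Usp7 WT and 2.703, 0, 0, 71.9 and 0% in Usp7 cKO. The shorter one held 3.70, 0, 0, 88.9 and 92.3% in Usp7 WT and 86.5, 86.8, 80.4, 0 and 96.1% in Usp7 cKO. In each library 1 of the pair held at least 71.9% of the cluster and the other at most 3.70%, from 37 to 81 cluster reads. Ap1b1, an adaptor protein subunit, was at 0 in 3 Usp7 WT and 2 Usp7 cKO libraries and between 34.2 and 35.8% in the others. The reads of the whole cluster moved with it, from 142 to 241 in libraries at 0 and from 545 to 772 in the others, and what sets this was not tested. Vdac3, a channel of the outer mitochondrial membrane, was at 0 in 3 Usp7 WT and 2 Usp7 cKO libraries, and Mtss1l in 2 and 0. The Vdac3 cluster had 186 to 290 reads in libraries at 0 and only 28 to 59 in the others, of which the member held 9 to 27. That of Mtss1l had 160 and 106 reads in the libraries at 0 and 406 to 514 in the others. edgeR called none of the 8 introns (adjusted p = 1 in each).

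Snap91 encodes the clathrin assembly protein AP180. Its member held 98.4, 99.8, 99.7, 98.3 and 0% in Usp7 WT and 98.9, 99.2, 99.3, 98.8 and 99.4% in Usp7 cKO. The cluster had 8 reads in Usp7 WT replicate 5 and 539 to 908 in the other libraries, so 1 library stands apart. The level of the gene was lower in Usp7 cKO (197.6 ± 7.27 and 166.0 ± 5.40 TPM, limma adjusted p = 0.00244).

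**Figure D2:**
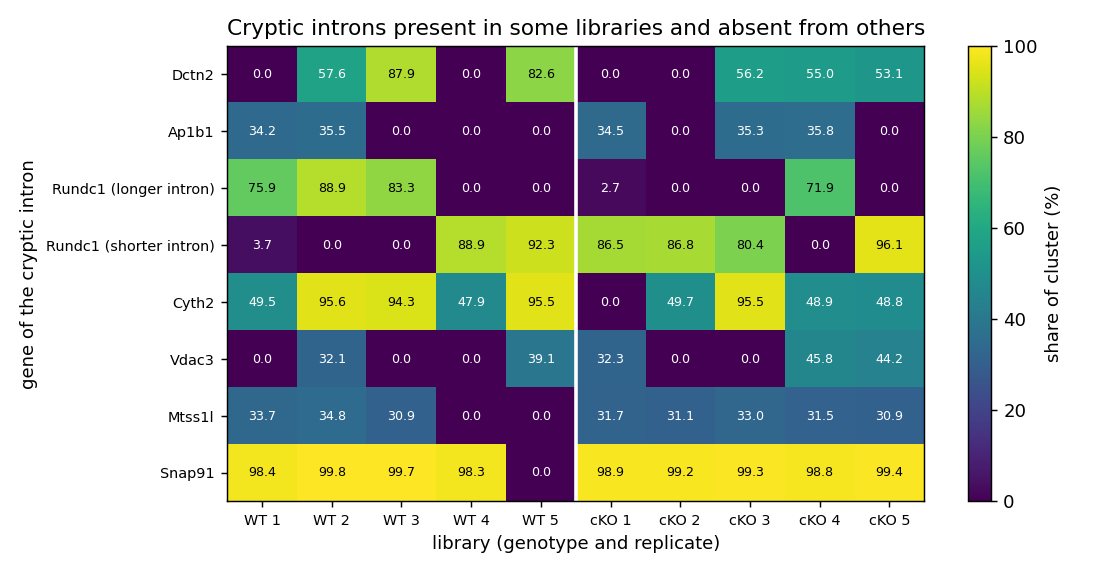
Share of cluster in percent (colour and printed value) of 7 introns found by the on or off rule and of the Snap91 intron (y axis) in each library (x axis, the white line parts Usp7 WT from Usp7 cKO). Shares of 0 occur in both genotypes for Dctn2, Ap1b1, Vdac3 and both Rundc1 introns, and in 1 genotype for Cyth2, Mtss1l and Snap91, and the Rundc1 introns replace each other.

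Usage was tested over all introns with a mean of at least 5 reads per library in clusters with at least 2 such introns, and 2686 of the 2912 members were tested. Of these, 462 had a mean under 5 reads in 1 of the groups and passed through the other. At a Benjamini-Hochberg adjusted p of 0.05 over all 30733 introns tested, edgeR called 6 members, 3 higher and 3 lower in Usp7 cKO, and 1 of those higher, in Nup98, passed the read minimum only through Usp7 cKO. Over all introns it called 0.117%, with 0.0586% higher and 0.0586% lower, and over the members 0.223%. The count was 2 to 6 when 1 library was left out, with 3 without Usp7 WT replicate 2, 2 without Usp7 cKO replicate 2 and 3 without Usp7 cKO replicate 5. At an unadjusted p of 0.05 the share was 6.14% (165 members) against 3.52% of all introns and 2.75% of annotated introns, and 7.95% of pairings of annotated sites that are not themselves annotated. DESeq2 called 35 of 2680 members (1.31%), 19 higher and 16 lower, against 1.24% of all introns, 0.667% higher and 0.574% lower, which is close to the background. All 6 members called by edgeR were among the 35. A member's log2 change was above 0 in 55.2% of those tested (median 0.04), against 54.5% of introns with a cryptic 3′ site (median 0.03) and 50.5% of all introns.

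**Figure D3:**
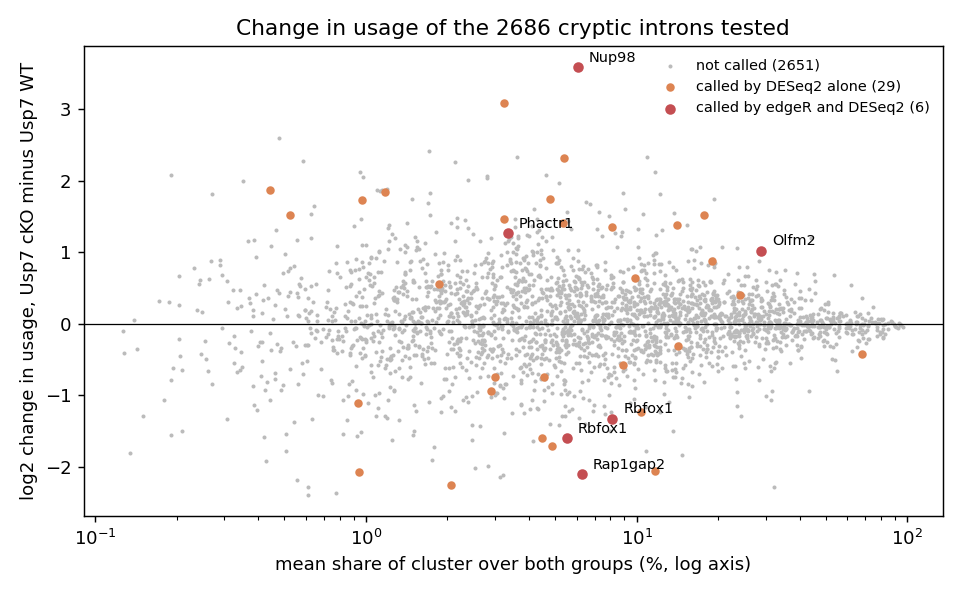
Log2 change in usage against the whole cluster, Usp7 cKO minus Usp7 WT (y axis), by mean share of cluster over both groups (x axis, log scale) for the 2686 members tested. The 6 members called by edgeR are named, 3 above and 3 below 0, and 29 more were called by DESeq2 alone.

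Rap1gap2, a GTPase-activating protein of the small GTPase Rap1, had the smallest edgeR p of the members. Its intron at chr11:74484971-74558936 starts at a site inside an annotated intron, 8280 bases downstream of the annotated site. The share was 11.5, 12.1, 8.07, 9.21 and 10.3% in Usp7 WT and 2.88, 3.42, 1.22, 2.33 and 1.73% in Usp7 cKO. All Usp7 cKO libraries were lower, with 49 of 2100 cluster reads against 256 of 2518 in Usp7 WT. The log2 change was -2.10 (edgeR adjusted p = 7.05e-05, DESeq2 adjusted p = 8.98e-10), and all 17 alternatives kept the call (largest edgeR adjusted p 0.00148). The 3 annotated introns of the cluster were not called and had edgeR log2 changes of -0.07, 0.16 and 0.26. The level of the gene was 176.4 ± 10.4 and 149.3 ± 7.75 TPM, Usp7 WT then Usp7 cKO (limma adjusted p = 0.0155).

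Rbfox1, a splicing regulator of neurons, had a called pair of members in 1 cluster, both lower in Usp7 cKO. They end at the same 3′ site as an annotated intron that starts far upstream. For chr16:7193877-7224311, whose 5′ site is in M21, the share was 10.2, 6.80, 6.86, 9.56 and 7.74% in Usp7 WT and 4.74, 3.41, 2.61, 2.64 and 0.757% in Usp7 cKO (log2 change -1.60, edgeR adjusted p = 0.000599, kept in all 17 alternatives). For chr16:7217829-7224311, whose site is intronic, it was 10.3, 13.2, 13.8, 9.72 and 11.1% in Usp7 WT and 6.06, 2.68, 2.15, 5.29 and 7.03% in Usp7 cKO (log2 change -1.33, edgeR adjusted p = 0.00268). The groups did not overlap in either. Leaving out Usp7 cKO replicate 2 raised the edgeR adjusted p of the latter to 0.0530, and leaving out both libraries of discordant sex to 0.0636. Another member of the cluster, chr16:7040025-7224311, was at 12.3% ± 1.57 and 15.2% ± 1.94, and the annotated intron at 66.8% ± 2.06 and 75.6% ± 1.89, both without a call (edgeR adjusted p = 1).

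The members of Rbfox1 lie 1.47 Mb from Usp7 on chromosome 16, so an effect of Usp7 loss and one of alleles linked to the floxed locus cannot be told apart. The level of Rbfox1 was 278.4 ± 20.8 and 220.3 ± 7.79 TPM, Usp7 WT then Usp7 cKO (limma adjusted p = 0.00334). The annotated exon end of the M21-annotated member is printed here with its last 3 exon bases in capitals, beside that of Olfm2, since these are the called sites whose exon side could be read.
Rbfox1, chr16:7193858-7193877, plus strand: ctgacaacgtgatcaccACT
Olfm2, chr9:20746171-20746190, minus strand: gcccaggcctcgccggaCAG

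Olfm2 encodes olfactomedin 2, a secreted glycoprotein of synapses. Its intron at chr9:20675723-20746171, also with an M21 site, rose from 17.3, 16.6, 17.5, 23.2 and 20.1% in Usp7 WT to 40.3, 40.2, 36.0, 35.9 and 40.9% in Usp7 cKO. All Usp7 cKO libraries were higher (log2 change 1.02, edgeR adjusted p = 0.0150, DESeq2 adjusted p = 1.71e-09). Another member of the same cluster with the same 3′ site went from 77.7% ± 2.39 to 58.1% ± 2.65 and was not called by edgeR (log2 change -0.42, adjusted p = 1) but by DESeq2 (adjusted p = 0.000750). The edgeR call ended when replicate 1, 2 or 3 of Usp7 WT was left out, or replicate 2 or 5 of Usp7 cKO (adjusted p 0.0551 to 0.0885), and without both libraries of discordant sex (0.166), while the log2 change stayed between 0.97 and 1.11 over all alternatives. The gene's level was 257.0 ± 10.8 and 222.5 ± 17.4 TPM (limma adjusted p = 0.0382).

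Phactr1, a regulator of protein phosphatase 1 and actin, had a called intron at chr13:42916867-42956617 with an intronic site. The share was 1.99, 2.25, 1.59, 2.66 and 1.36% in Usp7 WT and 6.50, 3.96, 4.599, 3.28 and 5.32% in Usp7 cKO. The groups did not overlap (log2 change 1.27, edgeR adjusted p = 0.0319). Leaving out any one of replicates 1, 2, 3 and 5 of either group ended the edgeR call (adjusted p 0.0557 to 0.322), as did leaving out both libraries of discordant sex (0.523), and the cluster as a whole did not pass (edgeR adjusted p = 0.0578).

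Nup98, a protein of the nuclear pore, had the largest log2 change and the fewest reads of the 6. Its intron at chr7:102195888-102208439 held 2.30, 0, 2.44, 0 and 0% in Usp7 WT and 0, 16, 8.57, 18.2 and 13.2% in Usp7 cKO. The groups overlapped, since Usp7 cKO replicate 1 was at 0. The reads were 4 of 458 in Usp7 WT and 48 of 390 in Usp7 cKO, and the intron passed the minimum only through Usp7 cKO. An intron tested through the group in which it is high had to differ, so the log2 change of 3.58 and its p (edgeR adjusted p = 0.0205, DESeq2 adjusted p = 0.0320) describe these libraries and support nothing further. With no read minimum the edgeR adjusted p was 0.0241. The call ended in 6 of the 10 settings with 1 library left out. The intron missed the threshold without replicate 2, 4 or 5 of Usp7 WT (edgeR adjusted p 0.109 to 0.142), and it fell under the minimum and was not tested without replicate 2, 4 or 5 of Usp7 cKO, nor at a minimum of 10 reads.

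**Figure D4:**
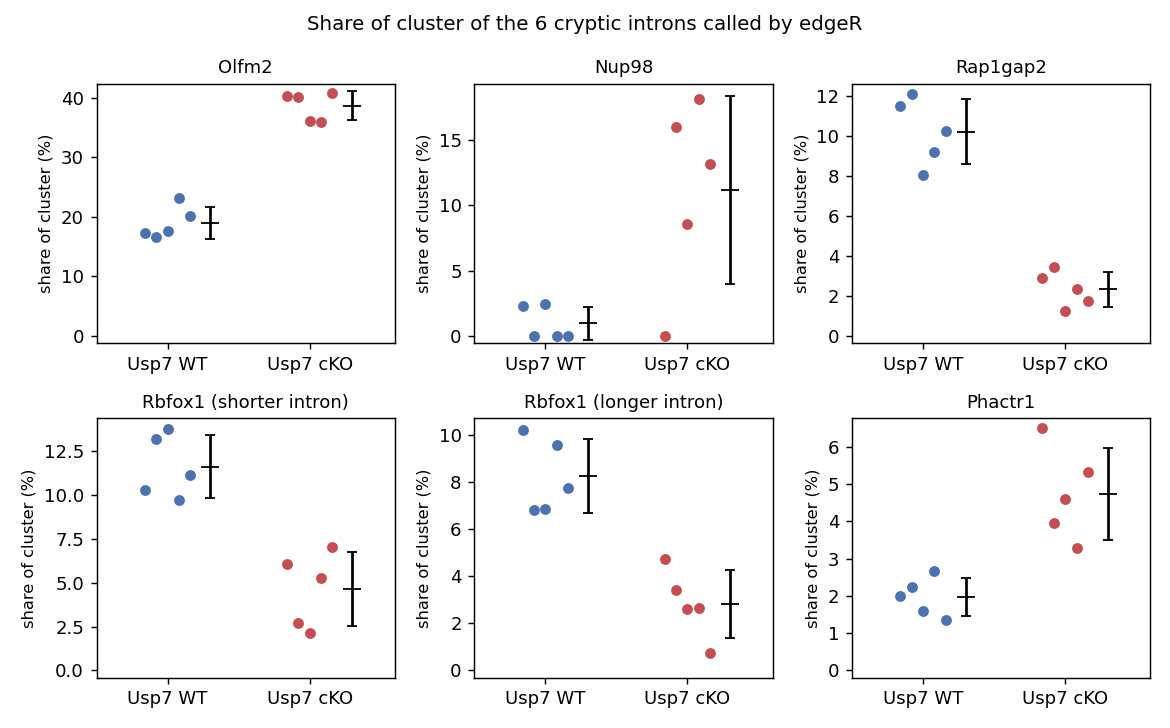
Share of cluster in percent (y axis) of the 6 members called by edgeR in each library of Usp7 WT (blue) and Usp7 cKO (red), with mean and SD (n = 5) beside the points. Groups do not overlap except in Nup98, where Usp7 cKO replicate 1 is at 0.

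The members called by DESeq2 alone include both such members inside coding exons and the one with the smallest DESeq2 p, all named after their values were seen. In Lzts3, a scaffold protein of the postsynaptic side, the cryptic site removes 63 bases of a coding exon. The share was 18.2, 11.9, 12.1, 11.2 and 14.1% in Usp7 WT and 19.9, 25.4, 22.4, 28.8 and 26.1% in Usp7 cKO, with no overlap (log2 change 0.87, DESeq2 adjusted p = 0.000121, edgeR adjusted p = 0.161). In Cacna1g, the pore subunit of a T-type calcium channel, the site lies 402 bases inside the exon. The share was 7.84, 9.71, 14.02, 6.87 and 2.11% in Usp7 WT and 20.8, 17.1, 20.3, 16.5 and 25.7% in Usp7 cKO, again with no overlap (log2 change 1.38, DESeq2 adjusted p = 0.0317, edgeR adjusted p = 0.490). Both losses are a multiple of 3 bases. The sites are shown with 10 exon bases before them, Lzts3 to the end of the annotated exon and Cacna1g for 20 bases.
Lzts3, chr2:130635773-130635845, minus strand: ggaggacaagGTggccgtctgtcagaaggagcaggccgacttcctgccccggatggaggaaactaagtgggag
Cacna1g, chr11:94459476-94459505, minus strand: taccacctggGTaatgggacgctcagagtt

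Ptprs, a receptor tyrosine phosphatase, had an intron at chr17:56438055-56445899 with 433 reads per library. The share was 10.8, 10.9, 10.3, 11.1 and 10.2% in Usp7 WT and 7.79, 7.39, 7.62, 6.06 and 6.90% in Usp7 cKO. The groups did not overlap (log2 change -0.57, DESeq2 adjusted p = 9.67e-13, edgeR adjusted p = 0.0787). Its 5′ site lies inside a non-coding exon or UTR, 1461 bases downstream of the annotated site.

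Summed over all members, the introns held 2.16, 2.08, 2.07, 2.16 and 2.19% of the intron reads in Usp7 WT and 2.16, 2.18, 2.24, 2.20 and 2.19% in Usp7 cKO. The means were 2.13% ± 0.0539 (SD, n = 5) and 2.20% ± 0.0283, a difference of 0.0639 percentage points (SE 0.0272), and the groups overlapped. The mean share of cluster was 12.2% ± 0.180 and 12.5% ± 0.132, also with an overlap. Sums and means over the members are given as values with no test. The 684 introns with an M21 site added little to the difference, with 0.976% ± 0.0113 and 0.981% ± 0.00671 of the reads.

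By position, the groups parted in 2 of 6 mean shares of cluster. Inside coding exons the mean share was 8.29, 7.75, 8.02, 7.92 and 8.20% in Usp7 WT and 8.46, 9.11, 9.12, 8.33 and 8.70% in Usp7 cKO, every Usp7 cKO library above every Usp7 WT library. Outside annotated transcripts it was 11.3, 11.4, 11.3, 10.9 and 11.5% in Usp7 WT and 10.9, 10.5, 10.6, 10.7 and 10.7% in Usp7 cKO, every Usp7 cKO library lower. The gap between the groups was narrow at both positions. The nearest libraries were Usp7 WT replicate 1 (8.29%) and Usp7 cKO replicate 4 (8.33%) inside coding exons. Outside annotated transcripts they were Usp7 WT replicate 4 (10.93%) and Usp7 cKO replicate 1 (10.91%). The share of all reads overlapped in both, at 0.143% ± 0.00632 and 0.160% ± 0.00945 inside coding exons and 0.161% ± 0.0271 and 0.161% ± 0.0230 outside annotated transcripts. In transcripts annotated as retained introns only, the share of all reads was 0.0314% ± 0.00152 and 0.0379% ± 0.00154 with no overlap, whereas the mean share of cluster overlapped (7.56% ± 0.769 and 8.31% ± 0.440). Of the 309 coding exon members tested, 62.8% had a log2 change above 0 (median 0.13), of the 89 retained intron members 62.9% (median 0.22), of the 1261 intronic ones 55.6% (median 0.05) and of the 160 outside annotated transcripts 53.1% (median 0.02), against 50.5% of all introns tested (median 0.00). Annotated introns went from 91.0% ± 0.153 to 90.5% ± 0.349 of the reads, introns of clusters without a gene from 3.34% ± 0.146 to 3.70% ± 0.270 and introns with a cryptic 3′ site from 1.99% ± 0.0696 to 2.06% ± 0.0476, each with an overlap.

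**Figure D5:**
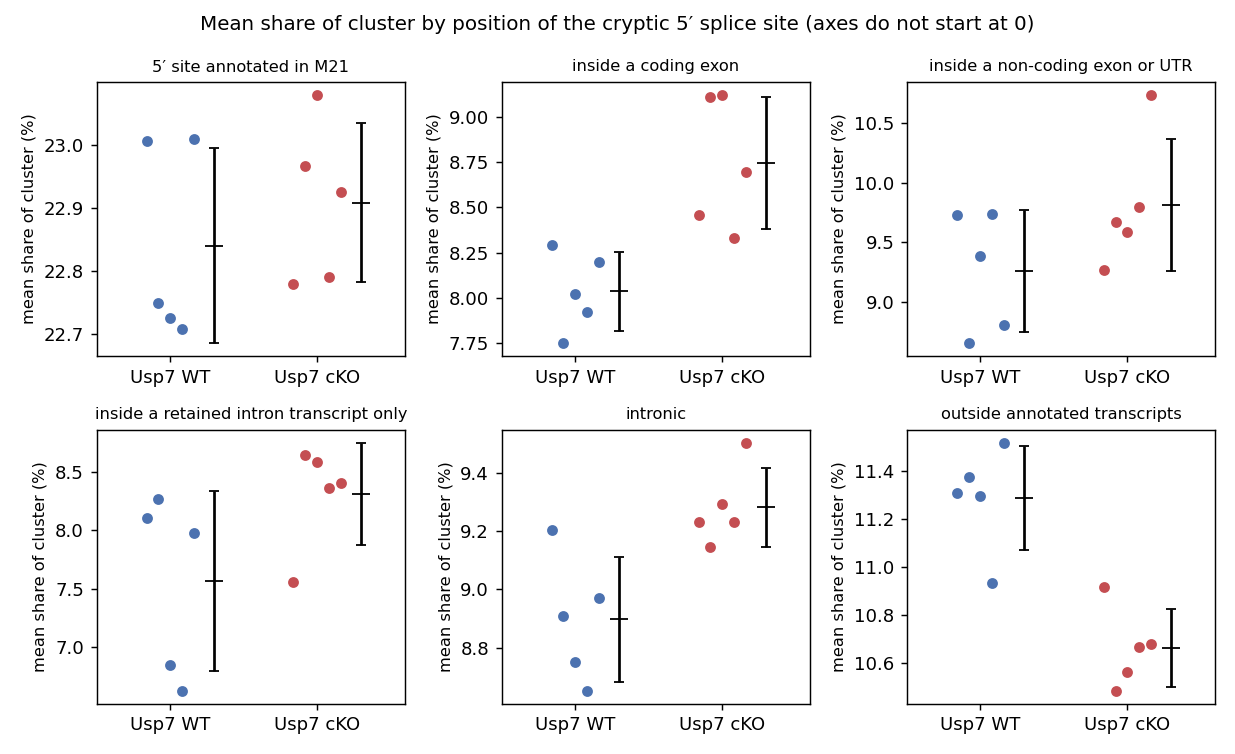
Mean share of cluster in percent (y axis, not starting at 0) per library in Usp7 WT (blue) and Usp7 cKO (red), by position of the cryptic 5′ splice site in M21, with mean and SD (n = 5). Groups do not overlap inside coding exons, where Usp7 cKO is higher, and outside annotated transcripts, where it is lower.

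Genes that act on 5′ splice sites or in decay held 8 members. Those of U1 were in Snrnp70, the U1 70K protein (0.772% ± 0.635 and 1.17% ± 1.28), in Snrpb, a core protein of the spliceosomal snRNPs (3.17% ± 1.15 and 3.99% ± 1.20), and in the U1-associated Luc7l3 (1.58% ± 0.498 and 3.29% ± 1.65, under the read minimum and not tested) and Rbm25 (6.80% ± 0.981 and 10.9% ± 8.04). Dhx16, a helicase of spliceosome activation, had 7.91% ± 5.09 and 13.5% ± 8.27. Of the decay factors, Smg5 had 9.83% ± 3.18 and 9.08% ± 5.45, Upf3a 11.4% ± 5.92 and 8.25% ± 4.32, and the helicase Upf1 85.5% ± 1.21 and 88.3% ± 6.51 at an M21-annotated site 33 bases upstream. In all 8 the groups overlapped, and of the 7 tested none was called by edgeR or DESeq2 or had an unadjusted edgeR p under 0.05. No member lies in Usp7. The sites of Rbm25, Dhx16, Smg5 and Upf1 could be read and are printed as above, to the end of the annotated exon except for Rbm25, which is shown for 20 bases.
Rbm25, chr12:83661259-83661288, plus strand: ggaataggatGTaagtatgagcttctgttt
Dhx16, chr17:35885668-35885705, plus strand: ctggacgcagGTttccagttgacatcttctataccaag
Smg5, chr3:88342513-88342564, plus strand: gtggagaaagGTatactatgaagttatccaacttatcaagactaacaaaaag
Upf1, chr8:70339982-70340024, minus strand: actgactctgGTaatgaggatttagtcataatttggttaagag

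The levels of such genes changed little in limma. Of 19 genes of the U1 snRNP and of 5′ site recognition 0 passed an adjusted p of 0.05 over all genes, of 21 genes of 5′ site transfer and activation 0, and of 14 decay genes 1, against 13.9% of all 27580 genes tested. At an unadjusted p of 0.05 limma gave 1, 3 and 1. The one that rose was Rbm8a, a subunit of the exon junction complex, from 21.98 ± 1.91 to 26.9 ± 1.90 TPM (log2 change 0.29, SE 0.07, limma adjusted p = 0.0253). Over these 3 lists, no gene passed when replicate 1 or 2 of Usp7 WT or replicate 3, 4 or 5 of Usp7 cKO was left out. The median log2 changes were 0.09, -0.03 and 0.02, and 0.06 over all genes. With edgeR on exon bin counts summed per gene, which called 28% of all genes (14.1% higher, 13.9% lower), 1 U1 gene and 5 activation genes were lower and 1 decay gene moved in each direction. With TPM rescaled by size factors, which called 20.5% of all genes (9.6% higher, 10.9% lower), 1 and 5 were lower and 1 decay gene higher, so the calls of these lists, as of all genes, depend on the scaling.

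Of the 1831 genes with a member that were tested for level, 406 (22.2%) changed, 169 higher and 237 lower in Usp7 cKO, against 9.22% of all genes higher and 4.67% lower. Genes with a member had to be expressed enough to give spliced reads. Without both libraries of discordant sex 234 changed. Rescaled TPM gave 185 higher and 518 lower of the same 1831 genes, and edgeR on bin counts 217 and 562 of 1827. The balance of directions over all genes moved with the scaling too, as given above.

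Cell type markers moved with the genotype. Of the glutamatergic neuron markers 10 of 14 were lower, and the median log2 change of the list was -0.38. Neurod6, whose locus drives NEX-cre, was at 52.1 ± 1.97 and 24.2 ± 2.45 TPM (limma adjusted p = 1.1e-05). Without a call, Cux2 was at a log2 change of -0.27, Neurod1 at 0.13, and Slc17a6 and Bcl11b at 0.02 each. Nrgn, with means of 4640 ± 396 (controls) and 2391 ± 233 TPM (knockouts), was the largest part of the list's summed level. That sum, which weighs Nrgn most, ranged from 7819 to 9127 TPM in the controls and 4555 to 5624 TPM in the knockouts. Of the microglia markers 8 of 9 were lower (347.4 to 397.4 and 233.4 to 270.7 TPM), of the GABAergic markers 1 of 9 (962.1 to 1046 and 849.4 to 992.8 TPM), and 2 of 7 astrocyte markers were higher (1818 to 2090 and 1641 to 2024 TPM). The astrocyte markers went both ways. Gfap and Sox9 were called, with log2 changes of 0.42 and 0.32. Without a call, Gja1 and Slc1a3 were at 0.13 and 0.11, and Aqp4, Slc1a2 and Aldh1l1 at -0.18, -0.15 and -0.09. Of the 8 oligodendrocyte markers (2403 to 3321 and 2599 to 3312 TPM) and the 5 endothelial markers (70.7 to 109.3 and 75.1 to 132.1 TPM) limma called 0, with 0 at an unadjusted p of 0.05. No marker was at 0 in all libraries. In whole tissue, fewer cells of a type and less RNA per cell cannot be told apart, nor can a change of splicing within a cell and a shift between cells that splice differently, and the part of the markers in the changes of share was not tested. Lower Neurod6 or Cre itself cannot be told apart from loss of Usp7.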

How the data were processed

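The authors deposited counts of spliced reads per intron in leafcutter clusters, gene levels in TPM and read counts per exon bin, per the file headers. Per the labels' protocols, libraries were made from total RNA of P18 cortex after RNase H digestion of rRNA, with random hexamer priming. GRCm38, featureCounts, Subread, SAMtools 1.10 and STAR 2.7.9a are listed, per the submitters' processing notes. The annotation behind the verdicts is not given in the sources used here. All intron counts of Usp7 WT replicate 1 were even (100%) and were halved. The gene ID column of the intron table was not used.

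Usage was tested with edgeR 4.0.16 (diffSpliceDGE on a quasi-likelihood fit, sex as labelled as covariate, R 4.3.3) over introns with a mean count of at least 5 in clusters with at least 2 such introns, with Benjamini-Hochberg adjustment over all introns tested. DESeq2 1.42.0 with the cluster total as normalization factor was an alternative. Levels were tested with limma 3.58.1 on log2(TPM + 0.5) for genes averaging 0.5 TPM or more, so that changes of low genes are understated. The scripts were checked on simulated data. Other steps used Python 3.11.15, numpy 2.4.6, pandas 2.3.3, scipy 1.17.1 and matplotlib 3.10.9. Reads carry no molecular identifiers, so limits from 0 reads cover counting error alone. Positions and letters come from GENCODE M21 transcripts, and intronic sites were not read.

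The members and gene lists were chosen with earlier results of these data known, so sums over members have no p. Named introns are those called by edgeR, the 6 with most reads, the 6 with the highest share, those in splicing or decay genes, those with a printed sequence, and those named as chosen after their values were seen. The split by position, the on or off rule and the split by M21 were added after seeing the data. Alternatives covered the read minimum, scaling, covariate, test, pseudocount, each library left out, and both libraries of discordant sex left out. Of the introns found by the on or off rule, 1 is not reported here.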

Additional observations from a re-analysis of the deposited data

Results flagged for a closer look

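Of 72 groups of 5 libraries tested for a library far from the rest, 3 met the criterion, and chance gives about 1 in 20. In Psd, Usp7 WT replicate 2 had the highest share, 89.0%, with the other Usp7 WT libraries between 86.3 and 87.0%. In Snap91, Usp7 WT replicate 5 was at 0%, from 8 cluster reads, with the others between 98.3 and 99.8%. In Itpr1, Usp7 cKO replicate 1 had the highest share, 96.3%, with the others between 91.8 and 93.0%.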

How the results depend on the processing

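No paired analysis was possible because the labels do not name the litter pairs and the replicate numbers follow accession order. The difference in total share, 0.0639 percentage points higher in Usp7 cKO, was 0.0644 without the 10 introns with most reads, 0.00456 for introns with an M21 site alone, 0.0603 without the on or off introns, 0.0579 without both libraries of discordant sex, and 0.0493 to 0.0790 with each library left out. The difference in mean share of cluster, 0.315 points, was 0.260 as a median over members, 0.333 without both discordant libraries and 0.269 to 0.383 with each library left out.

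With each library left out, the difference in share of reads was 0.0136 to 0.0286 points for downstream sites, 0.0125 to 0.0243 for sites with no partner, 0.00189 to 0.00929 for M21 sites, 0.0141 to 0.0195 inside coding exons, 0.00603 to 0.0111 inside non-coding exons or UTRs and 0.0225 to 0.0375 for intronic sites. As mean share of cluster, the difference was 0.748 in retained intron transcripts and 0.384 for intronic sites. Outside annotated transcripts the difference in share of reads was -0.000328 and ranged from -0.00613 to 0.0111. Its sign turned without Usp7 WT replicate 4 (0.0111), Usp7 cKO replicate 2 (0.00830) and Usp7 cKO replicate 4 (0.00227), while the mean share of cluster gave -0.626. The cause was not tested.

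The 6 called introns became 35 with DESeq2 and 2 to 6 with each library left out. The 1 changed gene of the splicing and decay lists became 8 with edgeR on bin counts, 7 with rescaled TPM, 2 with no covariate and 0 to 2 with each library left out. The 406 changed genes with a member became 779, 703 and, without both discordant libraries, 234, with 286 to 387 when each library was left out. Setting the members to those that start with GT covered the readable sites alone. The median of 10.1 reads per library limits the precision of most shares. What change could be detected at that depth was not tested.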
